A study of Mus musculus with 3 samples.

Results

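DNA methylation was examined across 9 genes of Hedgehog signalling in mouse colon organoids: the ligands Shh and Ihh, the receptor Ptch1, the transducer Smo, the co-receptor Gas1, the antagonist Hhip and the transcription factors Gli1, Gli2 and Gli3. Every 200-bp bin that overlapped the mm10 span of a listed gene, or the 5 kb on either side, was taken, which gave 3965 of the 12313737 bins measured. The list was chosen by the coverage of Gas1 in these same libraries, whose higher signal in Base medium had already been seen, and the other genes were added with earlier results known. All values below are therefore descriptions, and no share of called tiles or genes is offered as evidence about the pathway.

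Organoids came from the proximal colon of male mice aged about 40 days that were heterozygous for a Braf V600E allele that is silent until Cre recombinase acts (Braf+/LSL). Braf in Base medium was 1 library of organoids that had received lentiviral Cre, had been cultured for 5 months and had then been selected for growth over 3 weeks in Base medium, a medium from which stem-cell niche factors are left out. Braf in full medium was 1 library of organoids with the same activated allele and culture time, grown for the last 3 weeks with Wnt3a, R-spondin, Noggin and EGF. EV was 1 library of organoids that had received the lentiviral backbone without Cre and so kept the silent allele, cultured as long and in the same full medium. The labels do not say whether the 3 cultures came from 1 animal. With 1 library a group there is no replicate check and no p-value, and culture drift, selection and Braf activation cannot be told apart.

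MBD-seq sequences the fragments that a protein with a methyl-CpG-binding domain retains, so that signal needs both CpG sites and methylation on them. The deposited log2 values were turned back into read overlaps per bin, and overlaps times a step for each library, the authors' scaling, are called normalised coverage here. The libraries held an estimated 5985362 reads (Braf Base medium), 8648828 reads (Braf full medium) and 5041726 reads (EV). The Braf full medium library had a much higher diffuse background: 34.6% of the bins of the 9 genes held no read there, against 82.0% in Braf Base medium and 86.1% in EV. Over all bins the shares were 43.3%, 83.0% and 87.2%. Mean coverage over the bins of the 9 genes was 0.0759, 0.110 and 0.0592 in that order of Base, full and EV. Low values in the Braf full medium library therefore say little. Median coverage within 1 kb of a gene end was 0.00674 in Braf Base medium, 0.0579 in Braf full medium and 0.00913 in EV.

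Hedgehog ligands are secreted proteins that bind Patched and thereby relieve its block on Smoothened, which then switches Gli factors from repressors to activators. In the adult gut the ligands are made by the epithelium, Indian hedgehog above all in the colon, and the response, seen as Gli1 and Ptch1 transcription, lies mostly in the mesenchyme beneath it. Gas1 is anchored to the cell surface and helps present ligand to Ptch1. It is encoded by a gene without introns and was first found as a gene switched on in growth-arrested fibroblasts. Methylation of CpG-rich starts goes with silencing in many cancers, but no RNA was measured in these libraries.

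Starts with their sequences were found for 7 of the 9 genes in RefSeq (GRCm38.p6, which mm10 stands for). Of these, 4 are shown because they span the patterns seen: Gas1, which was high in Base medium, Ihh, which was high in Braf full medium, Gli3, which was high in every library, and Hhip, which was near 0 in every library. Each runs 5′ to 3′ on the gene's strand from 250 bases before the start to 50 bases after it, and capitals mark CpG sites.
Gas1, chr13:60177486-60177785, minus strand: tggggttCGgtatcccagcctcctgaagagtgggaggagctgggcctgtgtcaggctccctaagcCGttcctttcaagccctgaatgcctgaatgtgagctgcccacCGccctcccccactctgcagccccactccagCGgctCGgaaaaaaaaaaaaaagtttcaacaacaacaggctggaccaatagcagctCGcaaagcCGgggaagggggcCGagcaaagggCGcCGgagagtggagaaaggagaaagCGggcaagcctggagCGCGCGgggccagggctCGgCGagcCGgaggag
Ihh, chr1:74951623-74951922, minus strand: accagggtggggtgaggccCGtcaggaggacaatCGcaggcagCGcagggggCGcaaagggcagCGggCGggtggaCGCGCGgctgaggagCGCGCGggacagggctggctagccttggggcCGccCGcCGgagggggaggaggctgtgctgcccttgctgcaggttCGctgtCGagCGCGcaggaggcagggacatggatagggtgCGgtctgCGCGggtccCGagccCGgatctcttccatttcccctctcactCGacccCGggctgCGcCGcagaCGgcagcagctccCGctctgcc
Gli3, chr13:15463473-15463772, plus strand: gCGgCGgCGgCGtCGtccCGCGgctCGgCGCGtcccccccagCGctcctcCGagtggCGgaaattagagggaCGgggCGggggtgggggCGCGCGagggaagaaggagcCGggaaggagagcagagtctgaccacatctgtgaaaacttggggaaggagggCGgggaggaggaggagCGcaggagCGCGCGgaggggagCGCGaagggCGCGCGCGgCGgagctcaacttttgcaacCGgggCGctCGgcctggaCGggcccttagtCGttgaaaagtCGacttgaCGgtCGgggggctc
Hhip, chr8:80057959-80058258, minus strand: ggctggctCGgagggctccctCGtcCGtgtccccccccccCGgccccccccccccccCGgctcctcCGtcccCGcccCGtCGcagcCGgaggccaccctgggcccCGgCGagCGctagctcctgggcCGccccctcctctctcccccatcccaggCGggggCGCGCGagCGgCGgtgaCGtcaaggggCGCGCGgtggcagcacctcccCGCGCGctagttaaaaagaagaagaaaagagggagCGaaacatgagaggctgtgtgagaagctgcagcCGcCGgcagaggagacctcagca

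These 300 bases held 17 CpG sites at Gas1, 30 at Ihh, 39 at Gli3 and 30 at Hhip, where the median of the 32851 promoters in the table was 7. Coverage of the Gli3 stretch was 9.45 in Braf Base medium, 8.57 in Braf full medium and 5.72 in EV. Coverage of the Hhip stretch was 0 in Braf Base medium, 0.0163 in Braf full medium and 0 in EV. The Ihh stretch had 0.500, 2.33 and 0.0251 in the same order. Ihh and Hhip, with equal numbers of CpG sites, thus stood far apart in both Braf libraries but not in EV. The Gas1 stretch had 1.30, 0.122 and 0.326, and it lay at the edge of a larger block inside the gene. CpG sites were also dense at Ptch1 (47), Gli2 (28) and Smo (17). There coverage was no more than 0.0370 in Braf Base medium, 0.245 in Braf full medium and 0.0335 in EV, the highest values being those of Gli2 in all 3 libraries.

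For a fixed measure, the genes with their flanks were cut into 802 tiles of 1 kb. A tile was called gained or lost where the log2 ratio of 2 libraries was at least 1 or at most -1, with a pseudocount of 0.0597 added to each, and the higher library was at 0.298 or more. These settings are the mean over all bins and libraries and 5 times that mean. Only 41 tiles reached the minimum in any library, 33 in Braf Base medium, 34 in Braf full medium and 31 in EV, so most of the sequence of these genes carried little signal. A gene end was called in the same way from the 1 kb on either side of it, with a minimum of 0.119, which is 2 times the mean. Folds are plain ratios of coverage, and the 95% interval beside each comes from the exact binomial (Clopper-Pearson) method applied to estimated reads. It covers counting error only and compares libraries, not conditions.

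**Figure D1:**
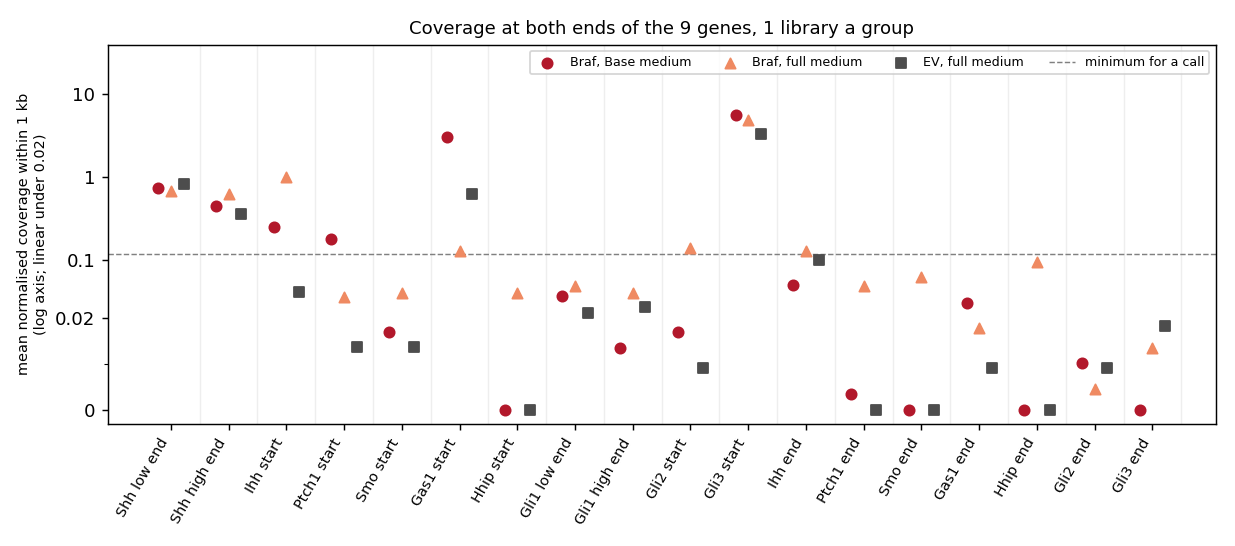
Mean normalised coverage within 1 kb of each end of the 9 genes (vertical axis, logarithmic above 0.02 and linear below), with 1 point for each library: Braf in Base medium (circles), Braf in full medium (triangles) and EV (squares). Where RefSeq gives the strand, the upstream gene boundary is labelled as the start, and the dashed line is the minimum of 0.119. For Ptch1 that boundary is 63573460, upstream of the start at 63565735. Gas1 at its start reaches 3.05 in Braf Base medium, Ihh 0.998 in Braf full medium, and Gli3 lies above 3 in every library.

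Of the ligands, Ihh was called at its start and Shh at neither end. Over the span and flanks, Ihh coverage was 0.0933 in Braf Base medium, 0.377 in Braf full medium and 0.0671 in EV. Within 1 kb of the Ihh start, on chromosome 1 at 74951672, coverage was 0.253 in Braf Base medium, 0.998 in Braf full medium and 0.0411 in EV. Braf full medium thus stood highest and EV lowest. The fold of Braf full medium over EV was 24.3 (95% interval 8.34 to 82.7), that of Braf Base medium over EV 6.15 (1.95 to 21.6), and that of Braf Base medium over Braf full medium 0.253 (0.160 to 0.381). With the libraries scaled to equal totals the last of these no longer met the threshold (log2 ratio -0.97).

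The signal at Ihh was focal. A block at chr1:74951601-74952400, reaching upstream of the start, averaged 0.630 in Braf Base medium, 2.55 in Braf full medium and 0.0376 in EV. A block inside the gene at chr1:74947801-74948600 averaged 0.602, 3.42 and 0.176 in the same order. Both blocks were close to empty in EV, with an estimated 1 and 6 reads. A block nearer the far end, at chr1:74946201-74946800, behaved otherwise and averaged 0.679 in Braf Base medium, 1.22 in Braf full medium and 1.31 in EV. Of the 17 Ihh tiles, 3 were gained in Braf full medium over EV, and the same 3 were lost in Braf Base medium over Braf full medium. The tile from 74948001 was the highest of them, with 2.53 in Braf full medium and 0.131 in EV (fold 19.4, 8.44 to 63.9). The loss of the tile from 74952001 did not hold with equal totals (log2 ratio -0.84). In Braf Base medium over EV the tiles from 74948001 and 74952001 were gained, but not with a pseudocount 4 times as large (0.87 and 0.96).

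Shh, the ligand that patterns the embryonic gut, lies on chromosome 5 and had signal in parts of its span in every library. Of its 22 tiles, 6 reached the minimum in Braf Base medium, 7 in Braf full medium and 7 in EV. Bins without a read made up 63.7%, 22.5% and 54.9% in the same order. Over the span with its flanks coverage was 0.320 in Braf Base medium, 0.387 in Braf full medium and 0.435 in EV, a fold of 0.736 for Braf Base medium over EV (0.632 to 0.854). At its high-coordinate end, which the lncRNA gene 9530036O11Rik overlaps, coverage was 0.455, 0.628 and 0.360. At its low-coordinate end it was 0.744, 0.677 and 0.826, so neither end was called in any comparison. Inside the gene, the tile from 28461001 held no read in Braf Base medium, 0.0490 in Braf full medium and 0.311 in EV. Braf Base medium was 5.64-fold lower there than EV when 3 reads are set as the limit of a tile without reads. The interval from estimated reads reached up to a fold of 0.265 for Braf Base medium over EV. The tile from 28458001 was lower in Braf full medium than in either other library, with 1.49, 0.686 and 1.53 in the order Base, full and EV. The tile from 28460001 was lost in Braf Base medium over EV, with 0.800 and 1.71. With the larger pseudocount, 4 times 0.0597, none of the Shh calls held but that of tile 28461001 in Braf Base medium over EV. The call at 28460001 also ended with equal totals (log2 ratio -0.86) and with an equal median of covered windows (-0.95), and that median also ended the call at 28458001 in Braf full medium over EV (-0.99).

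Of the receptor genes, Ptch1 had a small peak near its upstream boundary in Braf Base medium and Smo a large one inside the gene in Braf full medium. Ptch1, the ligand receptor and itself a Hedgehog target, spans chr13:63508328-63573460 on the minus strand. Over the span and flanks its coverage was 0.0965 in Braf Base medium, 0.122 in Braf full medium and 0.0820 in EV. Within 1 kb of its upstream boundary coverage was 0.182 in Braf Base medium, 0.0356 in Braf full medium and 0.0137 in EV. Braf Base medium was thus the only library above the minimum of 0.119. The fold of Braf Base medium over Braf full medium was 5.10 (1.71 to 29.7) and of Braf Base medium over EV 13.3 (2.62 to 669), the second resting on about 1 read in EV. The signal came from the tile that starts at 63572001, with 0.526 in Braf Base medium, 0.0882 in Braf full medium and no read in EV. Braf Base medium was 7.03-fold higher there than EV with 3 reads set as the limit of a tile without reads. The interval from estimated reads began lower, at a fold of 5.43. With a pseudocount 4 times as large, a minimum of 5 times the mean or a window of 500 bp, the upstream boundary of Ptch1 was not called in either comparison.

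The start that RefSeq places further inside Ptch1, at 63565735, had no read in its 300 bases in Braf Base medium or EV, and 0.0735 in Braf full medium. A block is used here for a run of at least 2 bins at 0.298 or more in any library. The rest of Ptch1 differed little. Of its 6 blocks, the 5 others differed by less than 2-fold in every comparison, with folds between 0.803 and 1.16. The block at chr13:63513401-63514000, for example, averaged 2.38 in Braf Base medium, 2.06 in Braf full medium and 2.21 in EV.

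Smo, the membrane protein that passes the signal on, had little coverage at its start on chromosome 6, with 0.0168 in Braf Base medium, 0.0401 in Braf full medium and 0.0137 in EV. Over the span and flanks it had 0.0475, 0.226 and 0.0658. The signal lay in a block at chr6:29747601-29749400, with its summit 13003 bp after the start, which averaged 0.329 in Braf Base medium, 2.85 in Braf full medium and 0.323 in EV. Braf full medium alone was high there. The tile from 29748001 had 3.95 in Braf full medium and 0.442 in EV (fold 8.94, 5.41 to 15.2), and 0.482 in Braf Base medium (fold over Braf full medium 0.122, 0.0767 to 0.183). Base medium and EV did not differ beyond counting error at that tile (fold 1.09, 0.562 to 2.06). A second block further in, at chr6:29754201-29755000, averaged 0.787, 1.65 and 1.24 in the order Base, full and EV. Of the 37 Smo tiles, 3 were gained in Braf full medium over EV and 4 lost in Braf Base medium over Braf full medium. The fourth lost tile, from 29754001, had a log2 ratio of -1.03, which became -0.19 with equal totals, -0.99 with background subtracted and -0.87 with the larger pseudocount.

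**Figure D2:**
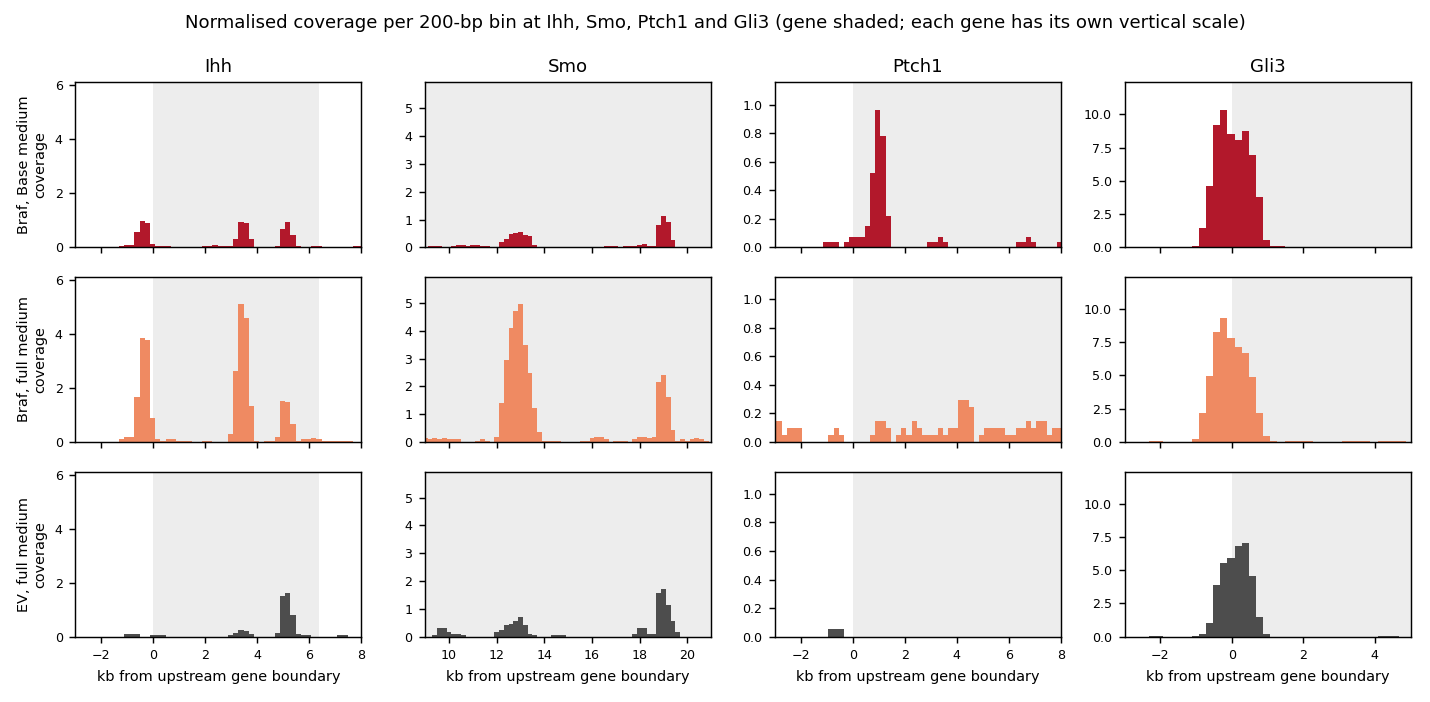
Normalised coverage per 200-bp bin (vertical axes, from 0, a scale for each gene) against distance from the upstream gene boundary in kb, in the direction of transcription, for Braf in Base medium (top), Braf in full medium (middle) and EV (bottom). The gene is shaded. The Ihh and Smo blocks stand out in Braf full medium, the Ptch1 peak in Braf Base medium, and the Gli3 start is covered in all 3 libraries.

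Gas1 was covered over most of the gene in Braf Base medium and much less in the other libraries. Within 1 kb of its start, on chromosome 13 at 60177535, coverage was 3.05 in Braf Base medium, 0.129 in Braf full medium and 0.630 in EV. Braf Base medium was highest, and Braf full medium lay below EV. Over the whole span and flanks coverage was 1.05, 0.199 and 0.348 in the same order. The fold of Braf Base medium over Braf full medium was 23.6 (13.4 to 46.2), of Braf Base medium over EV 4.85 (3.63 to 6.50), and of Braf full medium over EV 0.205 (0.0993 to 0.384). The other end of the gene, at 60174405, had 0.0303, 0.0178 and 0.00913 and was not called.

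The signal formed a block at chr13:60175601-60177800 that covered the start and most of the gene. Its average was 5.19 in Braf Base medium, 0.169 in Braf full medium and 0.945 in EV, from an estimated 621, 16 and 83 reads. All 11 bins of the block were at or over 0.298 in Braf Base medium, 1 was in Braf full medium and 8 were in EV. A block is made of bins that reach 0.298 in any library, so the count in the highest library follows largely from that definition. The highest bin, centred 1435 bp after the start, reached 8.52 in Braf Base medium, 0.343 in Braf full medium and 1.41 in EV. EV was highest nearer the start, with 1.96 at 435 bp, and dipped to 0.251 at 1035 bp, where Braf Base medium had 6.11.

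Of the 14 tiles at Gas1, the 3 that make up this block were gained in Braf Base medium over both other libraries. The tile from 60176001 had 7.18 in Braf Base medium, 0.186 in Braf full medium and 1.03 in EV, with folds of 38.6 for Base over full medium (19.1 to 88.4) and 6.94 for Braf Base medium over EV (5.09 to 9.95). The tile from 60177001 had 2.70, 0.157 and 0.793, and the tile from 60175001 had 1.63, 0.0686 and 0.271. The first 2 of these were also lost in Braf full medium over EV, with folds of 0.180 (0.0750 to 0.400) and 0.198 (0.0774 to 0.479). Sequence beside the block did not share the gain. A block upstream of the start, at chr13:60179001-60180000, averaged 2.22 in Braf Base medium, 1.58 in Braf full medium and 2.17 in EV, and a small block past the far end, at chr13:60171401-60172000, averaged 0.111, 0.539 and 0.485. The tile over the small block, from 60171001, was called lost in Braf Base medium over both other libraries, but not with the larger pseudocount (log2 ratios -0.93 over Braf full medium and -0.87 over EV). The local background around Gas1, relative to each library's own level over all chromosomes, was 1.18 in Braf Base medium, 1.13 in Braf full medium and 1.29 in EV. The part of local background in the values of the block was not tested.

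**Figure D3:**
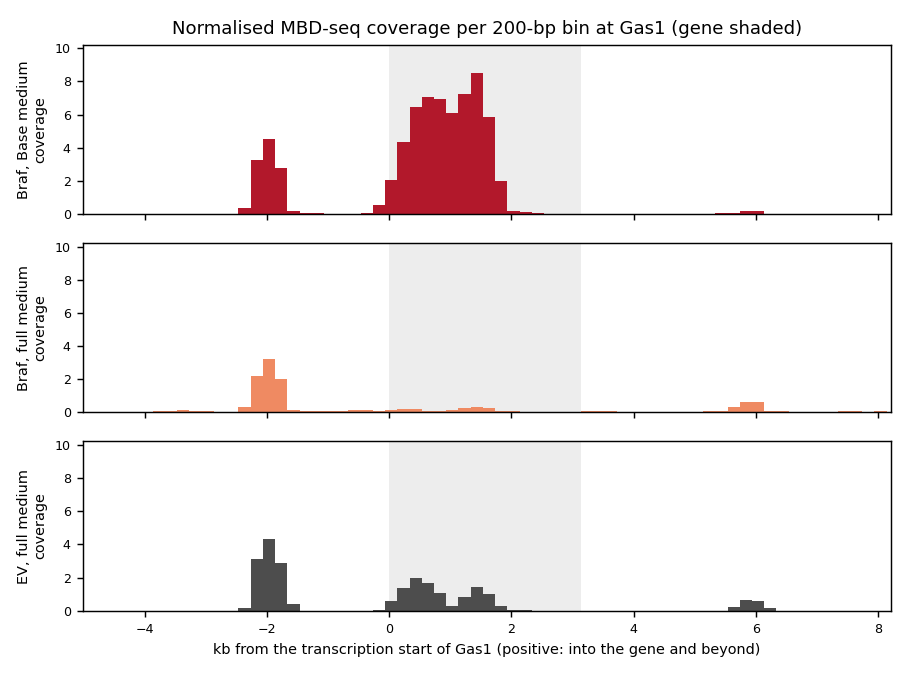
Normalised coverage per 200-bp bin (vertical axis, same scale in each panel) against distance in kb from the Gas1 start in the direction of transcription, for Braf in Base medium (top), Braf in full medium (middle) and EV (bottom), with the gene shaded. The block over the gene averages 5.19, 0.169 and 0.945 in these libraries, while the block upstream averages 2.22, 1.58 and 2.17.

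Hhip, which binds and traps Hedgehog ligands and is itself a target, was nearly free of signal. Over its span and flanks on chromosome 8, coverage was 0.00687 in Braf Base medium, 0.0522 in Braf full medium and 0.00490 in EV. The medians of all protein-coding genes over the same kind of span were 0.0277, 0.0717 and 0.0298, so Hhip lay below the median in each library. None of its 104 tiles reached the minimum. Its only block, at chr8:79974201-79974800, averaged 0.395, 0.343 and 0.418. No read fell within 1 kb of its start in Braf Base medium or EV. The third library, Braf full medium, had 0.0401 there, below the median of 0.0579 over all gene ends of that library.

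Of the transcription factors, Gli3 was covered heavily at its start in every library, Gli1 differed inside the gene, and the calls of Gli2 were 1 tile and an upstream end close to the minimum. Gli3, which acts mainly as the repressor of the pathway, starts on chromosome 13 at 15463723, within the lncRNA gene Gm6556. Coverage within 1 kb of the start was 5.67 in Braf Base medium, 4.92 in Braf full medium and 3.33 in EV, the highest of all 18 ends in each library. Braf Base medium over EV had a fold of 1.70 (1.48 to 1.96) and Braf full medium over EV one of 1.48 (1.27 to 1.72). These fell short of a call, and the order of Braf full medium and EV turned with equal totals (log2 ratio 0.55 as deposited and -0.14 with equal totals). With equal totals Gli3 was gained in Braf Base medium over Braf full medium (log2 ratio 1.09, against 0.20 as deposited). Over the span and flanks Gli3 coverage was 0.0522 in Braf Base medium, 0.0841 in Braf full medium and 0.0351 in EV. The tile before the start, from 15462001, was gained over EV in both Braf libraries, with 0.311 in Braf Base medium, 0.470 in Braf full medium and 0.0502 in EV. With the larger pseudocount the call in Braf Base medium over EV did not hold (log2 ratio 0.93). Near the far end, the tile from 15724001 was lower in Braf Base medium than in the others, with 0.0815, 0.461 and 0.673.

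Gli1, an activator whose transcription is the usual readout of the pathway, had no called end. Its coverage over the span and flanks was 0.336 in Braf Base medium, 0.268 in Braf full medium and 0.233 in EV. These values include a block at chr10:127326001-127328000 in the neighbouring gene Arhgap9, which averaged 2.09, 1.54 and 1.15 in the same order. Coverage at its low-coordinate end on chromosome 10 was 0.0370 in Braf Base medium, 0.0490 in Braf full medium and 0.0228 in EV, and at its high-coordinate end 0.0135, 0.0401 and 0.0274. A block inside the gene, at chr10:127332201-127333000, averaged 1.02, 0.502 and 0.0376, so that both Braf libraries stood above EV. The tile from 127332001 had a fold of 27.1 for Braf Base medium over EV (5.52 to 1309) and of 13.7 for Braf full medium over EV (2.53 to 675), with about 1 read in EV. The neighbouring block at chr10:127333401-127334600 averaged 1.43, 1.10 and 1.77 and did not share this order. The tile from 127334001, which holds the last part of that block and the sequence after it, was lost in Braf Base medium over EV, with 0.400 and 0.924. A tile further along, from 127337001, was gained in Braf Base medium over Braf full medium, with 0.452 and 0.196. Neither of these last calls held with the larger pseudocount (log2 ratios -0.86 and 0.67), the first not with equal totals either (-0.94), and the second not with local background divided out (0.83) or an equal median of covered windows (0.99). The tile from 127326001 was gained in Braf Base medium over EV, with 2.54 and 1.09, but it lies in the neighbouring gene Arhgap9 and not in Gli1.

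Gli2, the main activator of the pathway, had 0.0297 in Braf Base medium, 0.0823 in Braf full medium and 0.0368 in EV over its span and flanks on chromosome 1. Its larger blocks lay far inside the gene and differed by less than 2-fold in every comparison. The block at chr1:119013001-119014000 averaged 1.99 in Braf Base medium, 1.69 in Braf full medium and 1.48 in EV, and that at chr1:118837001-118838400 averaged 2.56, 2.45 and 3.64. Of its 231 tiles, 1 was called, from 118855001, lost in Braf Base medium over EV with 0.0889 and 0.311, a call that the larger pseudocount ended (log2 ratio -0.75). At its upstream boundary coverage was 0.0168 in Braf Base medium, 0.138 in Braf full medium and 0.00913 in EV. That end was called gained in Braf full medium over EV and lost in Braf Base medium over Braf full medium, but 0.138 lay close to the minimum of 0.119, and neither call held with background subtracted or with equal totals.

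**Figure D4:**
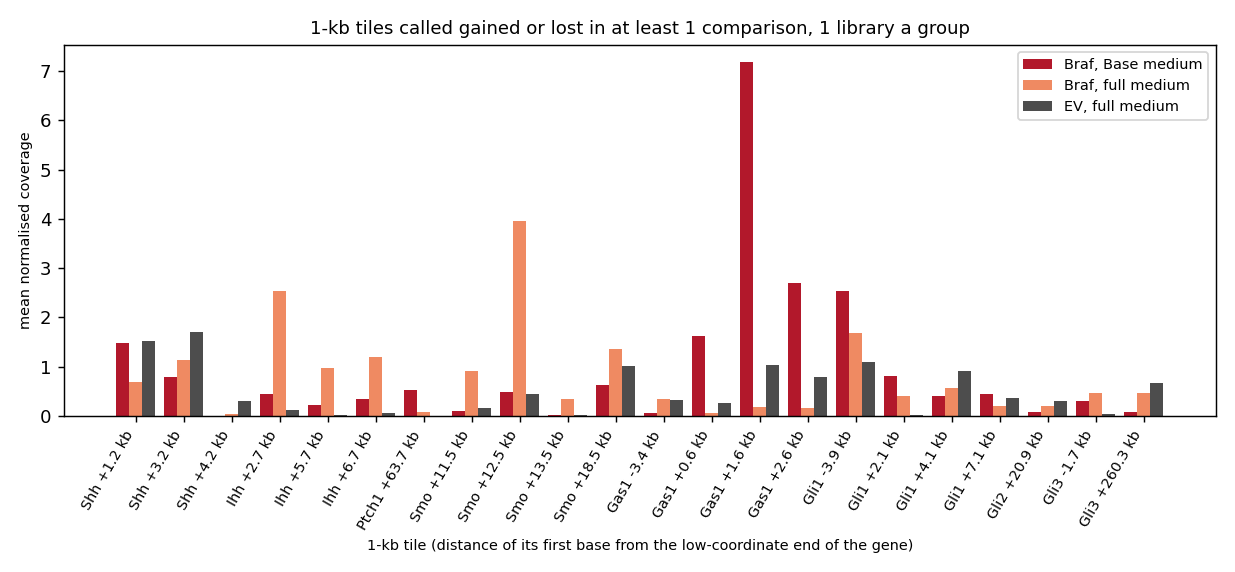
Mean normalised coverage (vertical axis, from 0) of each 1-kb tile of the 9 genes that was called gained or lost in at least 1 comparison, with a bar for each library: Braf in Base medium (left), Braf in full medium (middle) and EV (right). Labels give the distance of the tile from the low-coordinate end of its gene. The Gas1 tile at 1.6 kb reaches 7.18 in Braf Base medium, and the Ihh and Smo tiles are highest in Braf full medium.

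Counted together, Braf full medium over EV had 8 of the 802 tiles gained, where 0.296% of all 1134818 tiles of protein-coding genes were, and 4 lost, where 0.263% were. Ihh and Smo gave 3 gained tiles each, Gli1 and Gli3 1 each, and the lost tiles were 2 at Shh and 2 at Gas1. Over the covered tiles alone, 8 and 4 of 41 compare with 7.6% gained and 6.76% lost of all covered tiles. At gene ends, Ihh and Gli2 were gained and Gas1 was lost, where 8.55% of all protein-coding genes were gained and 1.13% lost. The median log2 ratio over the 18 ends was 0.42, against 0.66 over all gene ends. The positive medians go with the higher background of the Braf full medium library. Calls were also recomputed with background subtracted, but the part of background in the values was not tested.

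Braf Base medium over Braf full medium had 6 tiles gained and 9 lost, where 0.139% and 0.264% of all tiles were, or 3.58% and 6.78% of the covered ones. The gained tiles were 3 at Gas1 and 1 each at Shh, Ptch1 and Gli1. The lost ones were 4 at Smo, 3 at Ihh and 1 each at Gas1 and Gli3. Gas1 and Ptch1 were gained at an end and Ihh and Gli2 lost, where 2.02% of all genes were gained and 5.4% lost. The median log2 ratio was -0.40 over the 18 ends and -0.61 over all gene ends. Scaled to equal totals, 18 tiles were gained and 5 lost, where 1.33% and 0.059% of all tiles were.

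Braf Base medium over EV, the comparison without the library of high background, had 9 tiles gained and 6 lost, where 0.294% and 0.507% of all tiles were, or 7.54% and 13.0% of the covered ones. Gas1 had 3 of the gained tiles, Ihh and Gli1 2 each, and Ptch1 and Gli3 1 each. Of those counted at Gli1, the tile from 127326001 lies in Arhgap9. The lost tiles were 2 at Shh and 1 each at Gas1, Gli1, Gli2 and Gli3. Gas1, Ihh and Ptch1 were gained at their upstream ends and no gene was lost, where 6.19% of all genes were gained and 2.61% lost. The median log2 ratio over the 18 ends was 0.07, against 0.00 over all gene ends. The 3 comparisons share libraries and are not independent of each other.

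Of 50 further pathway genes measured at their ends, 9 were gained and 2 lost in Braf full medium over EV, where 8.55% and 1.13% of all protein-coding genes were. In Braf Base medium over Braf full medium 4 were gained and 3 lost, where 2.02% and 5.4% of all genes were. In Braf Base medium over EV 8 were gained and 2 lost, where 6.19% and 2.61% of all genes were. Of the target genes, 7 of 15 were gained in Braf full medium over EV, beside 1 of 8 ligand processing genes, 0 of 5 receptors and co-receptors, 0 of 16 signal control genes and 1 of 6 cilium genes. In Braf Base medium over EV, 5 of the 15 targets were gained, beside 1 of 8, 2 of 5, 0 of 16 and 0 of 6 in the same order. These lists were chosen with earlier results known, so their counts are descriptions and were not tested. Hand2, a target in limb and gut mesenchyme, had 0.946 in Braf Base medium, 0.650 in Braf full medium and 0.0183 in EV at its start. Foxf2, a forkhead factor that Hedgehog induces in gut mesenchyme, had 0.323 and 0.258 in these Braf libraries and no read in EV. Both genes were thus higher in both Braf libraries than in EV. Igf2 was called lost in Braf Base medium over both other libraries, with 0.0135 in Braf Base medium, 0.281 in Braf full medium and 0.370 in EV. Its fold of Braf full medium over EV was 0.759 (0.430 to 1.29) and was not called.

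Among genes that process or bind ligand, Dhh, the third Hedgehog ligand, had 1.11 in Braf Base medium, 1.39 in Braf full medium and 0.0776 in EV at its start. Lrp2, a large endocytic receptor that binds Shh, had 0.610, 0.0980 and 0.00913 at its start, high in Base medium only. Disp3, a Dispatched-related membrane protein, had 0.330, 0.0134 and 0.438 at its high-coordinate end. The local background around that end, relative to each library's own level over all chromosomes, was 1.31, 0.924 and 1.78 in the same order. Its part in the difference was not tested. None of the 16 signal control genes, Sufu and Kif7 among them, was called in any comparison. Of 6 cilium genes only Ift122 was called. In Braf full medium over EV its low-coordinate end was gained and its high-coordinate end lost. The low-coordinate end, at 0.120 in Braf full medium, was just above the minimum, and it was also lost in Braf Base medium over Braf full medium. The high-coordinate end had 0.0674 in Braf Base medium, 0.129 in Braf full medium and 0.347 in EV. It was also lost in Braf Base medium over EV (fold 0.194, 0.0755 to 0.423).

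The 5 gene ends most like the Gas1 start over the 3 libraries, by Euclidean distance on log2 coverage with the pseudocount, were Dmrta2 (distance 0.26), Arhgap28 (1.08), Irx1 (1.17), Hs3st2 (1.25) and Gm10710 (1.30). The closest, Dmrta2 on chromosome 4, had 2.85 in Braf Base medium, 0.107 in Braf full medium and 0.561 in EV. The order Base over EV over full medium was shared by the other 4, with 1.36 to 2.09 in Braf Base medium, 0.143 to 0.330 in Braf full medium and 0.301 to 0.570 in EV. The ends were picked by these same 3 coverages, so a shared order follows largely from the choice. For Gm10710 the fold of Braf full medium over EV was 0.803 (0.489 to 1.36), which lay within counting error. That comparison was not called for Irx1 or Gm10710. With 3 libraries, such a likeness is a description.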

How the data were processed

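DNA from 3 organoid libraries was profiled by MBD-seq. Following the labels' protocols, fragments of 200 to 400 bp from 100 to 200 ng of DNA were captured with MBD polypeptides on beads and read for 50 bp from one side. The submitters' processing notes name Bowtie2, with no version, and mm10. How reads became bin values was not described there. The authors' deposited values are log2 numbers for 200-bp bins on chromosomes 1 to 19; chromosomes X and Y are not analysed here. Raising 2 to each value gave a floor of 0.0153 plus whole steps, within 0.001 of a step. The step was 0.0370 in Braf Base medium, 0.0490 in Braf full medium and 0.0502 in EV. Total overlaps were 14850571, 20914446 and 12530155 in that order, and reads were estimated from isolated runs of 2 or 3 bins. The steps did not follow the estimated reads: those of Braf full medium and EV were close, at 8648828 and 5041726 reads, and that of Braf Base medium was lower, at 5985362 reads. What the scaling was based on is not known here.

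Genes, spans and starts came from RefSeq tables on GRCm38.p6, which give no exons; 20665 protein-coding genes served as background. Blocks are runs of at least 2 bins at 0.298 or more in any library, joined over gaps of 1 bin; this description was added after the data were seen. All 9 genes were named, with their called tiles, up to 4 further pathway genes a comparison by largest log2 ratio, and the 5 ends most like Gas1. The members and lists were chosen with earlier results of these data known. Calls were tested on simulated data. Python 3.11.15 with numpy 2.4.6, pandas 2.3.3 and scipy 1.17.1 was used. The alternatives were equal totals, an equal median of covered windows, background subtraction, local background within 5 Mb, a pseudocount 4 times as large, other minimums, a tile grid moved by 400 bp, gene spans without flanks and end windows of 500 bp.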

Additional observations from a re-analysis of the deposited data

How the results depend on the processing

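Of 90 counts of called tiles or genes recomputed under the alternatives, 68 stayed within 1.5 times the count given in the report and 22 did not. Relative to EV, equal totals shift log2 coverage by 0.19 (Base) and -0.70 (Braf full). An equal median of covered windows shifts it by 0.09 and 0.11 for tiles and by -0.36 and -0.33 for gene ends, in the same order. With equal totals, tiles lost in Braf full medium over EV became 16, tiles gained in Braf Base medium over Braf full medium 18 and lost 5. The shares of all tiles of protein-coding genes were then 1.18%, 1.33% and 0.059% in that order. Genes gained at an end in Braf full medium over EV became 1, where 3.81% of all genes were. Genes lost in Braf Base medium over Braf full medium became 0, where 0.992% of all genes were. With an equal median of covered windows, tiles lost became 2 for Braf full medium over EV and 3 for Braf Base medium over EV. Of all tiles, 0.204% and 0.421% were lost. With a pseudocount 4 times as large the lost tiles became 2 in each, where 0.0983% and 0.255% of all tiles were. With a minimum of 2 times the mean, 35 tiles were gained in Braf full medium over EV, where 3.14% of all tiles were. In Braf Base medium over Braf full medium 36 were lost, where 3.31% of all tiles were. With background subtracted, 1 gene was gained at an end in Braf full medium over EV, where 4.62% of all genes were. In Braf Base medium over Braf full medium 1 was lost, where 1.65% of all genes were. With the larger pseudocount, and likewise with a minimum of 5 times the mean at ends, each of the 4 counts of genes gained in the 3 comparisons, or lost in Braf Base medium over Braf full medium, became 1. In the order used above, 2.86%, 1.16% and 3.81% of all genes were gained with that pseudocount and 0.576% lost. With that minimum the shares were 3.38%, 1.70%, 4.32% and 1.07%. With windows of 500 bp, 1 gene was gained in Braf Base medium over Braf full medium, where 2.38% of all genes were. No called log2 ratio of a tile or end changed sign in any alternative.

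Gas1 was chosen by its coverage in these same libraries, and the alternatives use the same reads, so they add no independent support. The Gas1 start was called in all 3 comparisons under all 7 alternatives for gene ends. Its log2 ratio ranged from 3.16 to 4.76 for Braf Base medium over Braf full medium, from 1.68 to 2.38 for Braf Base medium over EV, and from -2.38 to -1.24 for Braf full medium over EV. Ihh in Braf full medium over EV ranged from 2.14 to 4.17. In Braf Base medium over EV, Ihh ranged from 0.81 to 2.26 and was not called with the larger pseudocount or the higher minimum. No paired analysis was possible because each group held 1 library, and no replicate could be left out. Depth limits tiles with few reads: 3 reads in a tile make a coverage of 0.0551 in Braf Base medium, 0.0711 in Braf full medium and 0.0748 in EV.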

Other observations

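A few stretches of the 9 genes outside the named tiles differed between libraries. A block far inside Gli3, at chr13:15548401-15548800, averaged 0.477 in EV from an estimated 8 reads and held none in either Braf library. A block near the upstream boundary of Gli2, at chr1:119047801-119048400, averaged 0.185 in Braf Base medium, 0.539 in Braf full medium and 0.0335 in EV. Its intervals were 2.02 to 562 for Braf full medium over EV and 0.105 to 0.921 for Braf Base medium over Braf full medium. Braf Base medium over EV, at 0.536 to 203, lay within counting error. The Gli3 block met the minimum for bins in EV alone and the Gli2 block in Braf full medium alone. Their high values there follow largely from that choice, which the intervals do not take into account. Of the 33 blocks found in the 9 genes, 17 differed by less than 2-fold in every comparison.

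Marker genes of cell types were read at their ends as well, although methylation there does not identify a cell type. Ends of 10 epithelial genes averaged 0.0285 in Braf Base medium, 0.0719 in Braf full medium and 0.0413 in EV, and those of 10 fibroblast and smooth muscle genes 0.0465, 0.104 and 0.0618. Of the first list, 1 gene was gained in Braf full medium over EV and 0 were called in Braf Base medium over EV, and of the second 1 was gained and 1 lost in each. Of all protein-coding genes, 8.55% were gained and 1.13% lost in Braf full medium over EV, and 6.19% and 2.61% in Braf Base medium over EV. For 6 immune genes the averages were 0.0129, 0.0379 and 0.00761. For 6 endothelial and neural genes they were 0.219, 0.136 and 0.0791. Of these genes, 3 were gained in Braf full medium over EV, where 8.55% of all genes were. In Braf Base medium over EV 4 were gained, where 6.19% of all genes were. Their part in the values of the 9 genes was not tested.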
